A study of Homo sapiens with 44 samples.

Results

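The genes described here encode receptor chains for interleukins that T cells, or cells beside them, release: IL2RG, IL4R, IL13RA1, IL15RA, IL10RB, IL22RA1, IL17RA, IL17RC, IL1R1 and IL18R1. They were found by symbol from the Ensembl gene identifiers of the deposited tables, and these 10 are among 33538 genes listed there. The set was chosen with earlier results of these data known, so its counts and medians beside those of all genes are a description. All 10 had an estimated count above 0 in each of the 44 libraries, and all 10 passed the filter on low counts that kept 14469 genes. IL2RG passed it through stimulated libraries only, as its unstimulated ones held 5, 4, 4 and 2 estimated counts, under the minimum of 10. Its pass and its fold changes below are therefore not independent of each other. The lowest single value was 1.60 estimated counts, for IL2RG. In GENCODE v29 (GRCh38), IL1R1 and IL18R1 are on the plus strand of chromosome 2 (chr2:102064544-102179874 and chr2:102311529-102398775), and IL2RG (chr X, 71107404 to 71112108, minus strand) and IL13RA1 (chr X, 118727572 to 118794539, plus strand) are on the X chromosome. IL15RA is at chr10:5943639-5978187 and IL22RA1 at chr1:24119771-24143121, both on the minus strand. IL4R (chr16:27313668-27364778), IL10RB (chr21:33266358-33310187), IL17RA (chr22:17084954-17115694) and IL17RC (chr3:9917074-9933630) are on the plus strand.

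The cells were OVCAR5, an established human ovarian carcinoma line, and every library came from cells with an IFNγ-sensing reporter and CFP, the unstimulated ones included. The stimuli were IFNγ at 0.01, 1 or 100 ng/ml, TNFα at 0.1, 1 or 10 ng/ml, IFNγ at 100 ng/ml together with TNFα at 10 ng/ml, and medium taken from tumor cells cultured with T cells, diluted 1/20000, 1/200 or 1/2. Unstimulated cells were the reference for each of them. Each of the 11 treatments was kept up for 2, 6, 12 or 24 h and sequenced as 1 library per duration, so a treatment has 4 libraries and no 2 libraries share a condition. What the co-culture supernatant contained, and which T cells gave it, is not stated in the labels.

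Most receptors for T-cell interleukins are pairs of chains. The common gamma chain IL2RG is shared by the receptors for IL-2, IL-4, IL-7 and IL-15, IL4R pairs with IL2RG or with IL13RA1, IL22RA1 and IL10RA each pair with IL10RB, and IL17RA pairs with IL17RC. The first group signals through JAK kinases and STAT factors, whereas the IL-17, IL-1 and IL-18 receptors signal through adaptors that lead to NF-κB. In epithelial cells IL-4, IL-13, IL-17 and IL-22 are known for their effects on barrier and repair genes, and IL15RA presents IL-15 to neighbouring lymphocytes.

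The libraries held 9586125 to 16270128 estimated counts each. The epithelial keratin genes KRT8, KRT18 and KRT19 were abundant (125 to 1842 CPM, which is counts scaled to library size, in the unstimulated, IFNγ 100 ng/ml, TNFα 10 ng/ml, combination and supernatant 1/2 libraries), EPCAM lay between 32.6 and 75.1 CPM there, and PAX8, a transcription factor of Müllerian tissues, between 6.24 and 18.5 CPM. MUC16, which encodes the ovarian tumor antigen CA125, had at most 29 counts in these libraries and did not pass the filter. The 11 markers of T and NK cells summed to 0.11 to 0.517 CPM in the supernatant 1/2 libraries and to 0.353 to 0.806 CPM in the unstimulated ones. Of these markers 8 and 6 had no count there, CD3E among them in both. The leukocyte gene PTPRC had no count in either as well, while the whole leukocyte list of 4 genes, most of it LCP1, summed to 14.5 to 17.7 CPM with supernatant 1/2, to 21.4 to 30.2 CPM with the combination, to 20.2 to 24.0 CPM with TNFα 10 ng/ml and to 6.18 to 15.3 CPM unstimulated. The 7 epithelial markers summed to 1770 to 2865 CPM with TNFα 10 ng/ml, to 2013 to 3073 CPM with the combination and to 1750 to 2838 CPM with supernatant 1/2, against 2850 to 3086 CPM in unstimulated cells, and the supernatant range lay wholly below the unstimulated one. Most of this sum was KRT8 and KRT18. By the edgeR test described below, 4 of the 6 epithelial markers that passed the filter fell with TNFα, 3 with the combination and 4 with supernatant 1/2, all of them keratins or EPCAM. PAX8 rose in these treatments (0.47 ± 0.13, 0.62 ± 0.13 and 0.39 ± 0.13 on the log2 scale), and CDH1 was not called. The part of these markers in the results below was not tested.

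In unstimulated cells the chains differed widely in level. On the TPM scale, which allows for gene length, the median over the 4 durations was 18.4 for IL15RA, 16.3 for IL13RA1, 15.6 for IL10RB, 13.4 for IL4R and 10.9 for IL17RC. It was 4.32 for IL17RA, 2.50 for IL1R1, 1.49 for IL18R1, 1.19 for IL22RA1 and 0.374 for IL2RG. In this order the ranges over the 4 durations were separate between IL17RC (10.3 to 18.8 TPM) and IL17RA (3.36 to 5.91 TPM), between IL17RA and IL1R1 (1.07 to 2.86 TPM), and between IL22RA1 (0.867 to 1.52 TPM) and IL2RG (0.132 to 0.671 TPM), and the other neighbours overlapped. The IL22RA1 and IL2RG levels rest on 28 to 40 and 2 to 5 estimated counts per unstimulated library.

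**Figure D1:**
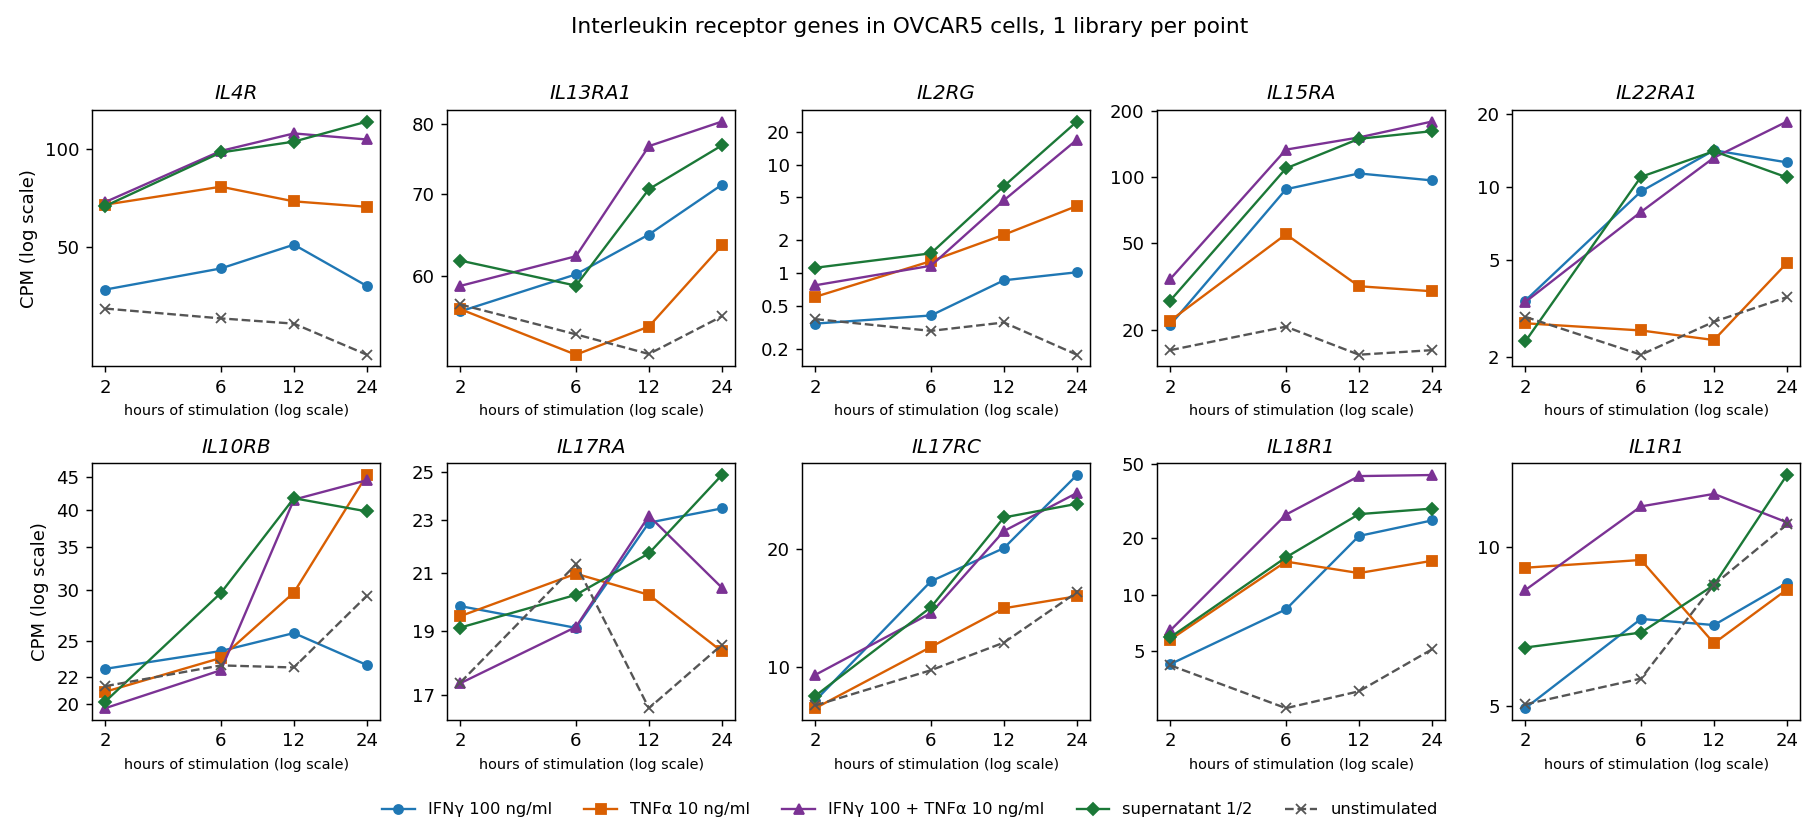
CPM of each of the 10 receptor genes (vertical axis, log scale, a range of its own in each panel) against hours of stimulation (log scale), with 1 library per point, for IFNγ 100 ng/ml, TNFα 10 ng/ml, their combination, supernatant 1/2 and unstimulated cells. IL2RG reaches 24.97 CPM at 24 h of supernatant 1/2 against 0.177 CPM in unstimulated cells, while the lines of IL17RA stay between 16.6 and 24.9 CPM.

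Sequence upstream of the gene starts is shown for IL15RA, IL4R and IL18R1, the 3 members called with each of the 4 strong treatments described below. RefSeq windows of 300 bases (250 before each annotated start and 50 after it, GRCh38.p14) were given for 9 of the 10 members, 16 windows in all. They were searched on both strands for TTCNNNGAA, the letters of a GAS element, for GAAANNGAAA, a pair of IRF half-sites, for the NF-κB forms GGGANNNTCC and GGGNNNTTCC, and for TTCNNNNGAA, the spacing of STAT6. Over all 35116 windows these letters occurred in 7.66%, 3.57%, 5.07%, 6.52% and 6.44% of windows. A match describes the letters and not a bound factor. Each stretch below has 30 bases in the direction of transcription, with the matched letters in capitals.
IL15RA at its outermost start, GAS letters, chr10:5978155-5978184, minus strand: tgcagcaggaaTTCGGCGAAgtggcggagc
IL15RA at its next start, 2 overlapping matches to GGGANNNTCC on opposite strands, chr10:5977780-5977809, minus strand: gcggaggaccGGGAGGCTCCCgggcttgcg
IL4R, a match to GGGNNNTTCC on the other strand, chr16:27313914-27313943, plus strand: tccgcgcccaGGAAAGCCCCgcgcggcgcg
IL18R1 at the later of its starts, a match to GAAANNGAAA on the other strand, chr2:102356253-102356282, plus strand: atcacacctctcTTTCACTTTCcacggtag
The GAS letters of IL15RA begin 127 bases before that start (position -127), the NF-κB letters of IL4R at position -50, and the IRF letters of IL18R1 at position -18, counted with the first transcribed base as 0. In GENCODE v29 all 4 stretches also overlap an exon of annotated transcripts of the same gene, and a UTR for IL15RA and IL4R. Other matches were GAS letters at position -47 of an IL1R1 window and at position 11 of the IL10RB window, and STAT6 letters at position -151 of the other IL18R1 window. No match of the 5 patterns was found in the windows of IL2RG, IL13RA1, IL22RA1 and IL17RC.

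Each fold change below is a log2 value from 1 edgeR fit of all 44 libraries, as the effect at the mean log2 duration ± its standard error (SE), with 4 libraries of the treatment against the 4 unstimulated ones (n = 4 each). A gene was called at an adjusted p under 0.05 in edgeR's quasi-likelihood test (Benjamini-Hochberg over 14469 genes). Each SE was worked back from that test, as the size of the log2 value divided by the square root of the test's F statistic. It is therefore unreliable, and can come out too small, where the log2 value itself is very small. No condition was repeated, so the spread behind each SE and p is not one between replicates. It comes from the departures of all 44 libraries from the fit, which takes each treatment effect as straight in log2 duration. Nothing in the labels says that libraries came from separate cultures, so a p here covers no more than those departures. All comparisons with unstimulated cells share the same 4 unstimulated libraries. In fits of only the libraries compared, 34 of the receptor calls described below were lost and 26 were kept. Calls of IL2RG are in neither number where it did not pass the count filter of such a fit. Slope terms were left out of those fits and of the fits of early or late durations alone. In bulk RNA, fewer cells with a transcript and less of it per cell cannot be told apart.

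The first question was what IFNγ alone, at 100 ng/ml, does to these receptors relative to no stimulus. IL15RA, IL18R1, IL22RA1, IL17RC, IL4R and IL13RA1 rose, so that 6 of the 10 chains were called higher and none lower. Of all 14469 genes, 9.38% were called higher and 6.47% lower. The median log2 fold change was 0.60 over the 10 chains and -0.01 over all genes. IL2RG (1.00 ± 0.56, adjusted p = 0.26), IL17RA (0.20 ± 0.08, 0.095), IL10RB (-0.01 ± 0.12, 0.99) and IL1R1 (-0.07 ± 0.15, 0.85) did not pass edgeR's quasi-likelihood test. With the 2 h and 6 h libraries alone none of the 10 was called, where 0.548% of all genes were called higher, and the values of the 6 chains above were then 1.29 ± 0.43 for IL15RA, 1.21 ± 0.58 for IL22RA1, 0.77 ± 0.59 for IL18R1, 0.43 ± 0.18 for IL17RC, 0.34 ± 0.14 for IL4R and 0.07 ± 0.08 for IL13RA1. With the 12 h and 24 h libraries alone 7 were called, IL17RA being the seventh, where 7.85% of all genes were called higher. By edgeR in a fit of only the libraries compared, IL15RA (2.0, adjusted p = 0.16), IL18R1 (1.77, 0.15) and IL22RA1 (1.70, 0.087) were not called. Neither were IL17RC (0.68, 0.075) and IL13RA1 (0.21, 0.17).

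IL15RA is the private alpha chain that binds IL-15 with high affinity. It had 21.2, 88.2, 104 and 96.8 CPM at 2, 6, 12 and 24 h of IFNγ 100 ng/ml, against 16.3, 20.8, 15.5 and 16.3 CPM in unstimulated cells. The groups did not overlap, although the 2 h library was only just above the unstimulated range. The fitted log2 fold change was 1.97 ± 0.15 (adjusted p = 9.3e-10, edgeR's quasi-likelihood test).

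IL22RA1, the chain that gives a cell its sensitivity to IL-22, had 3.42, 9.59, 14.2 and 12.6 CPM with IFNγ 100 ng/ml, against 2.93, 2.05, 2.80 and 3.53 CPM in unstimulated cells. From 6 h on each IFNγ library was above all unstimulated ones, and at 2 h the groups overlapped. The log2 fold change was 1.64 ± 0.29 (adjusted p = 1.3e-04, edgeR). IL18R1, the binding chain for IL-18, had 4.27, 8.37, 20.6 and 24.9 CPM, against 4.21, 2.49, 3.06 and 5.12 CPM, and rose by the same fitted amount, 1.64 ± 0.28 (adjusted p = 1.2e-04).

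IL17RC, the second chain of the receptor for IL-17A and IL-17F, had 8.21, 16.6, 20.2 and 31.01 CPM with IFNγ 100 ng/ml, against 7.98, 9.82, 11.6 and 15.5 CPM in unstimulated cells. It was higher at each duration, on top of a climb with culture time in both groups, and its log2 fold change was 0.65 ± 0.11 (adjusted p = 5.3e-05, edgeR). Its partner IL17RA had 19.8, 19.1, 22.9 and 23.5 CPM, against 17.4, 21.3, 16.6 and 18.6 CPM.

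IL4R, the signalling chain for IL-4 and IL-13, had 37.1, 43.1, 50.96 and 38.04 CPM with IFNγ 100 ng/ml, against 32.4, 30.3, 29.2 and 23.4 CPM in unstimulated cells. All 4 IFNγ libraries were above the unstimulated range, by a log2 fold change of 0.56 ± 0.10 (adjusted p = 1.6e-04, edgeR). IL13RA1, which completes the type II receptor, moved by 0.21 ± 0.06 (adjusted p = 0.0081). That call was lost without the 2 h library of either group, with values of 0.207 without the IFNγ one (adjusted p = 0.071) and 0.203 without the unstimulated one (0.070).

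The same was asked of TNFα alone at 10 ng/ml. IL2RG, IL18R1, IL4R and IL15RA rose and no chain fell. Of all genes, 14.3% were called higher and 10.1% lower, and the median log2 fold change was 0.23 over the 10 chains and -0.002 over all genes. IL10RB (0.26 ± 0.11, adjusted p = 0.10), IL1R1 (0.21 ± 0.15, 0.36), IL22RA1 (0.14 ± 0.32, 0.80), IL17RC (0.11 ± 0.11, 0.53), IL17RA (0.10 ± 0.08, 0.45) and IL13RA1 (0.05 ± 0.06, 0.55) did not pass edgeR's quasi-likelihood test. The 2 h and 6 h libraries alone gave 2 calls (IL4R and IL1R1), where 4.38% of all genes were called higher, and IL18R1 (1.45 ± 0.57), IL2RG (1.41 ± 0.56) and IL15RA (0.91 ± 0.43) were not called there. The 12 h and 24 h libraries alone gave 5 (IL2RG, IL4R, IL15RA, IL18R1 and IL10RB), where 9.77% of all genes were called higher.

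IL4R had 67.6, 76.8, 69.2 and 66.6 CPM at 2, 6, 12 and 24 h of TNFα 10 ng/ml, against 32.4, 30.3, 29.2 and 23.4 CPM in unstimulated cells. Each TNFα library had more than the highest unstimulated one, already at 2 h, and the later ones stayed between 66.6 and 76.8 CPM. The log2 fold change was 1.29 ± 0.10 (adjusted p = 1.2e-10, edgeR).

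IL2RG had 0.604, 1.29, 2.26 and 4.16 CPM with TNFα 10 ng/ml, against 0.376, 0.293, 0.350 and 0.177 CPM in unstimulated cells. These are 7, 15, 23 and 46 estimated counts against 5, 4, 4 and 2, so the unstimulated level rests on few reads. The groups did not overlap and the log2 fold change was 2.45 ± 0.48 (adjusted p = 3.5e-04, edgeR).

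IL18R1 had 5.78, 15.04, 13.1 and 15.2 CPM with TNFα 10 ng/ml, against 4.21, 2.49, 3.06 and 5.12 CPM in unstimulated cells, a log2 fold change of 1.64 ± 0.27 (adjusted p = 7.0e-05, edgeR). IL15RA had 22.2, 54.9, 31.8 and 30.2 CPM, against 16.3, 20.8, 15.5 and 16.3 CPM, a log2 fold change of 0.97 ± 0.16 (adjusted p = 6.7e-05). Neither gene's groups overlapped. The IL15RA level was highest at 6 h, whereas with IFNγ it was near its top from 6 h to 24 h.

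**Figure D2:**
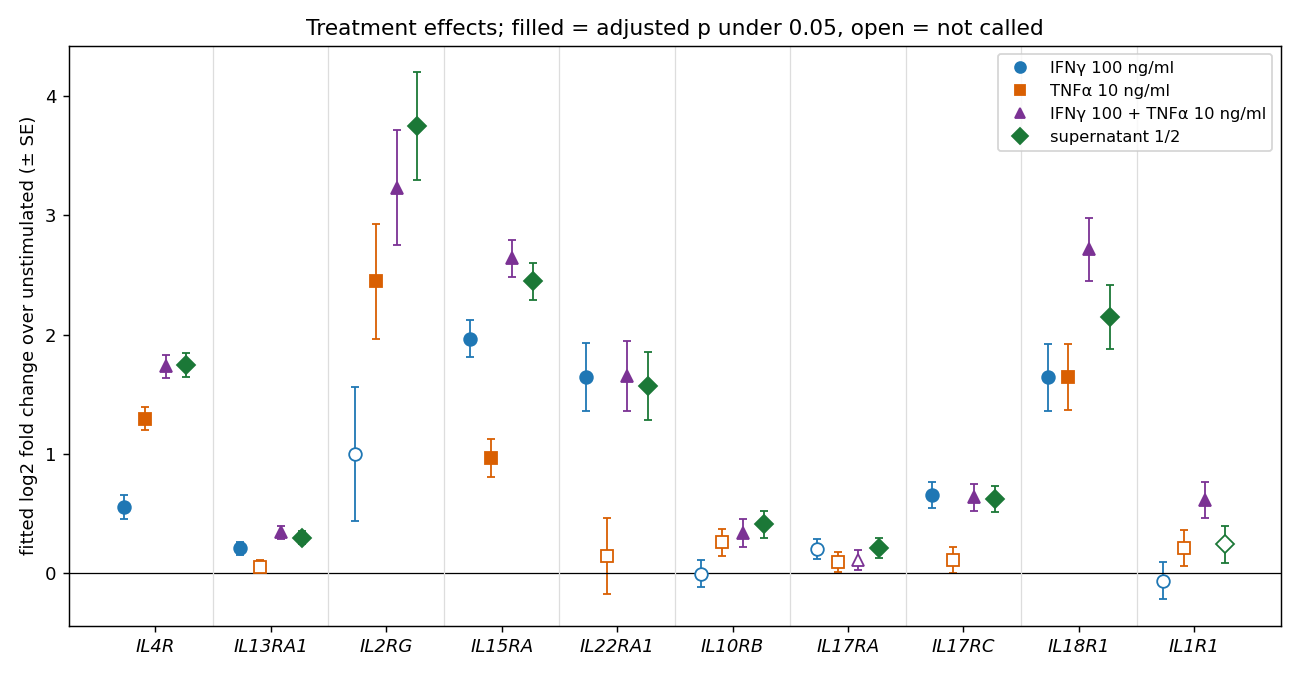
Fitted log2 fold changes over unstimulated cells (vertical axis) with SE bars for the 10 receptor genes under IFNγ 100 ng/ml, TNFα 10 ng/ml, their combination and supernatant 1/2, each from 4 libraries against 4, with filled symbols for an adjusted p under 0.05 (edgeR). The points of IL22RA1 lie at 1.64, 1.66 and 1.57 with IFNγ, the combination and supernatant 1/2 and at 0.14 with TNFα alone, while IL4R and IL2RG lie higher with TNFα (1.29 and 2.45) than with IFNγ (0.56 and 1.00).

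Set directly against each other, IFNγ 100 ng/ml and TNFα 10 ng/ml differed for 6 chains. IL22RA1 (1.501 ± 0.29, adjusted p = 2.4e-04), IL15RA (1.00 ± 0.14, 8.9e-06), IL17RC (0.55 ± 0.11, 3.1e-04) and IL13RA1 (0.15 ± 0.06, 0.037) were higher with IFNγ, by edgeR's quasi-likelihood test. IL2RG (-1.45 ± 0.43, 0.013) and IL4R (-0.74 ± 0.09, 7.0e-07) were lower with IFNγ than with TNFα. Over all genes, 11.1% were higher and 13.4% lower with IFNγ. IL18R1 differed by -0.002 ± 0.20, IL1R1 by -0.27 ± 0.15, IL10RB by -0.26 ± 0.12 and IL17RA by 0.11 ± 0.08, none of them called. The IL13RA1 call was lost without any of 6 of the 8 libraries compared (adjusted p up to 0.14, with values of 0.14 to 0.16), and the IL2RG call without the IFNγ library at 2 h (-1.54, adjusted p = 0.072) or 24 h (-1.41, 0.0502) or the TNFα library at 2 h (-1.44, 0.067).

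With both cytokines, 9 of the 10 chains rose over unstimulated cells and IL17RA (0.11 ± 0.08, adjusted p = 0.29) did not pass edgeR's quasi-likelihood test. The background was high in this comparison, with 23.5% of all genes called higher and 22.4% lower. The median log2 fold change was 1.14 over the 10 chains and -0.02 over all genes. With the 2 h and 6 h libraries alone 4 of the 10 were called (IL4R, IL15RA, IL1R1 and IL18R1), where 7.75% of all genes were called higher, and IL2RG (1.47 ± 0.57) and IL22RA1 (1.03 ± 0.59) were not. With the 12 h and 24 h libraries alone 9 were called, then with IL17RA and without IL1R1, where 21.7% of all genes were called higher. By edgeR in a fit of only the libraries compared, IL17RC (0.64, adjusted p = 0.053) and IL13RA1 (0.335, 0.11) were not called. Neither were IL1R1 (0.59, 0.11) and IL10RB (0.33, 0.27). IL2RG did not pass the count filter of that fit and has no value there.

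IL2RG had 0.772, 1.17, 4.69 and 16.97 CPM at 2, 6, 12 and 24 h of the combination, against 0.376, 0.293, 0.350 and 0.177 CPM in unstimulated cells. Most of the gain came after 6 h, and its log2 fold change was 3.23 ± 0.48 (adjusted p = 2.9e-06, edgeR). Compared with IFNγ alone it was higher by 2.24 ± 0.44 (adjusted p = 2.4e-04), and compared with TNFα alone the value was 0.79 ± 0.38 (0.15).

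IL18R1 had 6.46, 26.8, 42.9 and 43.5 CPM with the combination, against 4.21, 2.49, 3.06 and 5.12 CPM in unstimulated cells. The log2 fold change was 2.72 ± 0.26 (adjusted p = 7.3e-09, edgeR), and the gene was higher than with IFNγ alone (1.07 ± 0.23, 0.0011) and than with TNFα alone (1.07 ± 0.23, 0.0012). From 6 h on each combination library had more IL18R1 than any library of either cytokine.

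IL15RA had 34.3, 133.7, 152 and 179.6 CPM with the combination, against 16.3, 20.8, 15.5 and 16.3 CPM in unstimulated cells, a log2 fold change of 2.64 ± 0.15 (adjusted p = 1.1e-12, edgeR). It was higher than with IFNγ alone by 0.67 ± 0.14 (5.0e-04) and than with TNFα alone by 1.67 ± 0.14 (3.2e-09). On the TPM scale it was the most abundant of the 10 chains in this treatment, with a median of 136 over the 4 durations.

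IL4R had 68.9, 98.9, 111.9 and 107 CPM with the combination, against 32.4, 30.3, 29.2 and 23.4 CPM in unstimulated cells, a log2 fold change of 1.73 ± 0.10 (adjusted p = 4.5e-14, edgeR). It exceeded IFNγ alone by 1.18 ± 0.09 (2.0e-10) and TNFα alone by 0.44 ± 0.09 (6.1e-04). IL13RA1 rose by 0.34 ± 0.06 (8.7e-06) over unstimulated cells and by 0.29 ± 0.06 (2.3e-04) over TNFα alone, and its difference from IFNγ alone was 0.13 ± 0.05 (0.065).

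IL22RA1 had 3.38, 7.90, 13.2 and 18.6 CPM with the combination, against 2.93, 2.05, 2.80 and 3.53 CPM in unstimulated cells, a log2 fold change of 1.66 ± 0.29 (adjusted p = 4.3e-05, edgeR). IL17RC had 9.55, 13.7, 22.3 and 27.9 CPM, against 7.98, 9.82, 11.6 and 15.5 CPM, a log2 fold change of 0.63 ± 0.11 (2.4e-05). Against IFNγ alone the differences of these genes were 0.01 ± 0.26 (0.98) and -0.02 ± 0.11 (0.92). Against TNFα alone both were higher, by 1.51 ± 0.29 (3.6e-04) and 0.53 ± 0.11 (6.9e-04).

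IL1R1, the signalling receptor for IL-1α and IL-1β, had 8.30, 11.9, 12.6 and 11.1 CPM with the combination, against 5.04, 5.64, 8.49 and 11.04 CPM in unstimulated cells. The combination libraries were higher at 2, 6 and 12 h and level with the unstimulated one at 24 h. The log2 fold change was 0.61 ± 0.15 (adjusted p = 0.0014, edgeR), and it was 0.68 ± 0.15 (0.0010) against IFNγ alone and 0.41 ± 0.15 (0.049) against TNFα alone. The last call was lost without the combination library at 6 h or 12 h or the TNFα library at 2, 12 or 24 h (adjusted p of 0.11 to 0.31), and with DESeq2 (0.076).

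IL10RB, the accessory chain for IL-10 and IL-22, had 19.7, 22.5, 41.5 and 44.4 CPM with the combination, against 21.3, 22.9, 22.8 and 29.4 CPM in unstimulated cells, a log2 fold change of 0.34 ± 0.12 (adjusted p = 0.017, edgeR). It was also higher than with IFNγ alone (0.34 ± 0.12, 0.025). In the 2 h and 6 h libraries the value was -0.08 and was not called. These values are uncertain, because a protein-coding readthrough gene annotated on the same strand, AP000295.1, overlaps it, and the estimated counts of that gene ran from 0 to 362 per library. With the combination it had 212, 362, 217 and 229 estimated counts, against 0, 55, 35 and 88 in unstimulated cells. With both genes summed, an alternative chosen after seeing the data, the level was 40.1, 55.1, 62.7 and 68.7 CPM, against 21.3, 26.96, 25.8 and 37.2 CPM, and the log2 fold change was 1.02 ± 0.11 (adjusted p = 2.2e-08). The sum also rose with TNFα 10 ng/ml (0.41 ± 0.11, 0.0090), and its value with IFNγ 100 ng/ml was 0.27 ± 0.11 (0.11). With TNFα 10 ng/ml the readthrough gene had 0, 221, 123 and 0 estimated counts at 2, 6, 12 and 24 h. The sum holds the counts of both genes and is not a measure of IL10RB alone. Without the combination library at 2 h or 12 h, or the unstimulated one at 12 h, the call of IL10RB itself was lost (0.24 to 0.28 on the log2 scale, adjusted p of 0.073 to 0.20). The call against IFNγ alone was lost without the combination library at 2 h or 12 h or the IFNγ one at 2 h or 24 h (0.25 to 0.28 on the log2 scale, adjusted p of 0.12 to 0.24).

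Over all genes, 16.1% were called higher in the combination than with IFNγ 100 ng/ml alone, and 12.5% higher than with TNFα 10 ng/ml alone. Among the receptors these counts were 6 of 10 (IL2RG, IL4R, IL15RA, IL10RB, IL18R1 and IL1R1) and 7 of 10 (IL4R, IL13RA1, IL15RA, IL22RA1, IL17RC, IL18R1 and IL1R1). IL10RB summed with its readthrough gene was higher in the combination than with IFNγ alone (0.75 ± 0.11, adjusted p = 7.3e-06, edgeR) and than with TNFα alone (0.61 ± 0.11, 1.4e-04), where IL10RB itself differed from TNFα alone by 0.08 ± 0.11 (0.69). The interaction, which asks whether the combination departs from the sum of the single log2 effects, was called for none of the 10 and for 0.525% of all genes. Its values ran from -0.57 ± 0.36 for IL18R1 to 0.47 ± 0.21 for IL1R1, with unadjusted p-values under 0.05 for IL1R1 only and no call by DESeq2 either.

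The supernatant of the co-culture, at 1/2, was the third stimulus set against no stimulus. Again 9 of the 10 chains rose, all but IL1R1 (0.24 ± 0.15, adjusted p = 0.22, edgeR), where 22.6% of all genes were called higher and 20.8% lower. The median log2 fold change was 1.10 over the 10 chains and -0.02 over all genes. At 2 h and 6 h alone 3 were called (IL2RG, IL4R and IL15RA), where 7.1% of all genes were called higher, and IL18R1 (1.504 ± 0.57, adjusted p = 0.12, edgeR) and IL22RA1 (1.17 ± 0.58, 0.23) were not. At 12 h and 24 h alone 9 were called, all but IL1R1, where 19.9% of all genes were called higher. By edgeR in a fit of only the libraries compared, IL22RA1 (1.58, adjusted p = 0.091) and IL17RC (0.615, 0.071) were not called. Neither were IL10RB (0.397, 0.14), IL13RA1 (0.284, 0.12) and IL17RA (0.207, 0.30).

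IL2RG had 1.12, 1.52, 6.34 and 24.97 CPM at 2, 6, 12 and 24 h of supernatant 1/2, against 0.376, 0.293, 0.350 and 0.177 CPM in unstimulated cells. The 24 h libraries held 228 estimated counts with supernatant and 2 unstimulated. The log2 fold change was 3.75 ± 0.45 (adjusted p = 9.4e-08, edgeR). The 11 T and NK cell markers together did not exceed 0.517 CPM in these supernatant libraries. Of the leukocyte and myeloid markers, LCP1 (0.40 ± 0.14), CORO1A (0.63 ± 0.23) and CD14 (0.94 ± 0.32) were called higher with supernatant 1/2, and LYZ (-1.07 ± 0.35) lower. The part of any such cells in the IL2RG level was not tested.

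IL15RA had 27.4, 109.8, 149.8 and 162 CPM with supernatant 1/2, against 16.3, 20.8, 15.5 and 16.3 CPM in unstimulated cells, a log2 fold change of 2.45 ± 0.15 (adjusted p = 4.9e-12, edgeR). IL4R had 67.0, 97.8, 105.6 and 121.7 CPM, against 32.4, 30.3, 29.2 and 23.4 CPM, a log2 fold change of 1.75 ± 0.10 (4.6e-14). Both genes were above the unstimulated range in all 4 libraries.

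IL18R1 had 5.94, 15.8, 26.9 and 28.8 CPM with supernatant 1/2, against 4.21, 2.49, 3.06 and 5.12 CPM in unstimulated cells, a log2 fold change of 2.15 ± 0.27 (adjusted p = 4.9e-07, edgeR). IL22RA1 had 2.33, 11.01, 14.03 and 10.95 CPM, against 2.93, 2.05, 2.80 and 3.53 CPM, and rose by 1.57 ± 0.29 (7.9e-05). At 2 h its supernatant library was below the unstimulated one, and from 6 h on far above it.

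IL17RC rose by 0.62 ± 0.11 (adjusted p = 3.3e-05, edgeR), IL10RB by 0.41 ± 0.11 (0.0042), IL13RA1 by 0.29 ± 0.06 (7.1e-05) and IL17RA by 0.21 ± 0.08 (0.040) with supernatant 1/2. IL10RB summed with its readthrough gene rose by 0.81 ± 0.11 (1.3e-06). The IL17RA call was lost without the supernatant 2 h or 24 h library or the unstimulated 2 h, 12 h or 24 h library, and with DESeq2 (adjusted p = 0.091). IL17RA had 19.1, 20.2, 21.7 and 24.9 CPM with supernatant 1/2, against 17.4, 21.3, 16.6 and 18.6 CPM in unstimulated cells.

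Supernatant 1/2 and the combination were not told apart for any of the 10 chains by edgeR's quasi-likelihood test, while 8.45% of all genes were called either way. The widest differences were -0.57 ± 0.23 for IL18R1 (adjusted p = 0.13), 0.52 ± 0.36 for IL2RG (0.42) and -0.37 ± 0.15 for IL1R1 (0.12), of which IL18R1 and IL1R1 were under 0.05 before adjustment. DESeq2 called none either. IL18R1 was lower with supernatant 1/2 than with the combination in the 12 h and 24 h libraries alone (-0.64 ± 0.16, 0.031), and IL1R1 was lower when the combination library at 2 h (-0.62 ± 0.17, 0.037) or at 24 h (-0.61 ± 0.15, 0.014) was left out.

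With TNFα at 0.1 ng/ml IL4R alone was called (0.71 ± 0.10, adjusted p = 3.0e-05, edgeR), where 4.02% of all genes were called higher. IL4R had 56.7, 64.5, 48.3 and 25.8 CPM there, against 32.4, 30.3, 29.2 and 23.4 CPM in unstimulated cells, so that at 24 h it was close to the unstimulated level. IL15RA (0.55 ± 0.16, 0.051), IL18R1 (0.86 ± 0.29, 0.085) and IL2RG (1.54 ± 0.52, 0.086) did not pass the test at that dose. DESeq2 called 3 of the 10 chains there, a count without its share of all genes.

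At 1 ng/ml TNFα the same 4 chains as at 10 ng/ml were called, IL2RG (2.43 ± 0.47, adjusted p = 4.1e-04), IL18R1 (1.38 ± 0.28, 8.2e-04), IL4R (1.14 ± 0.10, 2.0e-09) and IL15RA (0.87 ± 0.16, 3.6e-04), with 11.5% of all genes higher (edgeR). Between TNFα 10 and 0.1 ng/ml IL4R was the single chain called, by 0.58 ± 0.09 (2.8e-04), where 3.16% of all genes were higher. That call was lost without the 2 h library of TNFα 0.1 ng/ml (0.37, adjusted p = 0.13). At 24 h IL4R had 25.8, 49.6 and 66.6 CPM with 0.1, 1 and 10 ng/ml, and with the 2 h and 6 h libraries alone the difference between 10 and 0.1 ng/ml was 0.25 and was not called.

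With IFNγ at 0.01 ng/ml no chain was called, where 0.0415% of all genes were higher, and none had an unadjusted p under 0.05 but IL15RA (0.38 ± 0.17, adjusted p = 1, edgeR), and DESeq2 called none. At 1 ng/ml IL15RA (1.73 ± 0.15, 1.5e-08), IL22RA1 (1.42 ± 0.29, 0.0015), IL18R1 (1.29 ± 0.28, 0.0035) and IL17RC (0.46 ± 0.11, 0.0069) were called, with 5.54% of all genes higher. IL4R at that dose had a value of 0.32 ± 0.10 (0.0501). Between 100 and 1 ng/ml IFNγ none of the 10 was called either way by edgeR or DESeq2, and 0.173% of all genes were. IL4R was the one chain under an unadjusted p of 0.05 there (0.24 ± 0.10).

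Of the supernatant dilutions, 1/20000 called no chain and 0.00691% of all genes higher, and no chain had an unadjusted p under 0.05 or a call by DESeq2. At 1/200 IL15RA (1.75 ± 0.15, adjusted p = 1.4e-08), IL2RG (1.70 ± 0.51, 0.031), IL18R1 (1.41 ± 0.28, 0.0013), IL22RA1 (1.35 ± 0.29, 0.0024), IL4R (0.56 ± 0.10, 2.4e-04) and IL17RC (0.51 ± 0.11, 0.0018) were called (edgeR), 6 of 10 where 7.12% of all genes were higher. The IL2RG call at 1/200 was lost without the 2 h, 6 h, 12 h or 24 h unstimulated library and without the supernatant library at 6 h or at 12 h (1.42 to 1.86 on the log2 scale, adjusted p of 0.062 to 0.19). IL2RG had 0.292, 1.12, 1.61 and 1.05 CPM at 1/200, and reached 24.97 CPM at 24 h of supernatant 1/2.

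**Figure D3:**
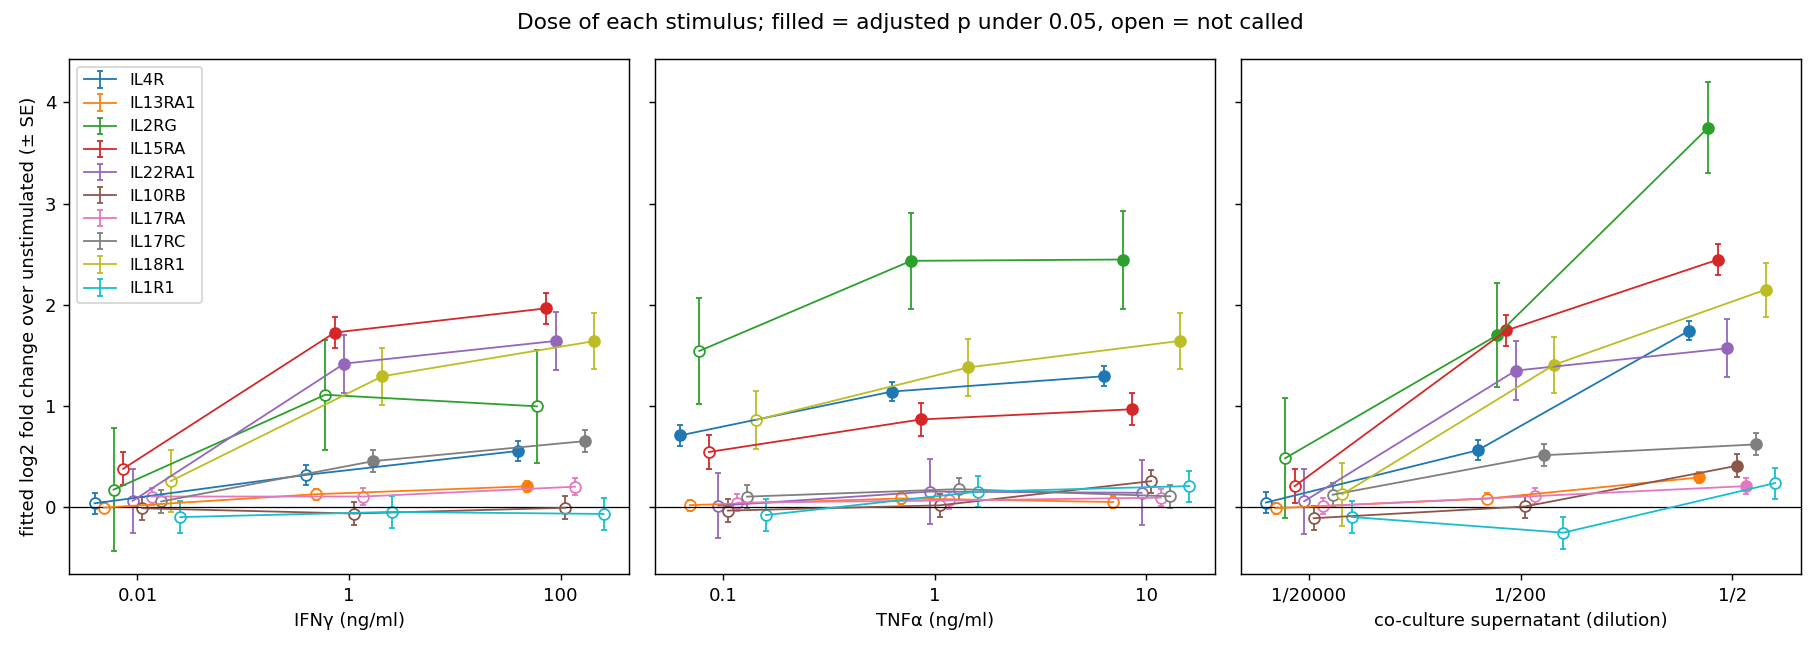
Fitted log2 fold changes over unstimulated cells (vertical axis) with SE bars for the 10 receptor genes at 3 doses of IFNγ, of TNFα and of supernatant, with filled symbols for an adjusted p under 0.05 (edgeR) and points of one dose set side by side for legibility. IL15RA lies at 0.38, 1.73 and 1.97 with rising IFNγ, and IL4R and IL2RG with supernatant lie at 1.75 and 3.75 at 1/2 and at 0.56 and 1.70 at 1/200.

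Several effects differed with duration. The slope, the change of the log2 effect per doubling of duration, was called for IL15RA with IFNγ 100 ng/ml (0.65 ± 0.12, adjusted p = 0.0022, edgeR), where 2.52% of all genes had a called positive slope. With the combination it was called for 7 chains, IL2RG (1.60 ± 0.40, 0.0046), IL15RA (0.69 ± 0.12, 1.9e-04), IL18R1 (0.69 ± 0.21, 0.021), IL22RA1 (0.64 ± 0.23, 0.044), IL4R (0.31 ± 0.07, 0.0029), IL10RB (0.25 ± 0.09, 0.037) and IL13RA1 (0.15 ± 0.04, 0.0090), against 11.1% of all genes. With supernatant 1/2 it was called for IL2RG (1.58 ± 0.39, 0.0057), IL15RA (0.76 ± 0.12, 1.1e-04) and IL4R (0.36 ± 0.07, 0.0010), against 8.34%. With TNFα 10 ng/ml none of the 10 slopes was called by edgeR or DESeq2, against 1.47%, although IL2RG (0.97 ± 0.39), IL10RB (0.19 ± 0.09) and IL1R1 (-0.40 ± 0.12) were under 0.05 before adjustment. All of these slope calls were lost without the unstimulated 2 h library. With the combination the slopes of IL2RG, IL13RA1, IL10RB and IL4R were then 1.77, 0.16, 0.22 and 0.22, that of IL15RA was 0.33, and those of IL22RA1 and IL18R1 were 0.06 and 0.02. With supernatant 1/2 the slopes of IL2RG, IL4R and IL15RA were then 1.74, 0.27 and 0.40, and with IFNγ 100 ng/ml that of IL15RA was 0.29. IL10RB summed with its readthrough gene had a slope of 0.02 with the combination.

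In unstimulated cells themselves, IL1R1 (1.26 ± 0.30, adjusted p = 0.0020) and IL17RC (0.94 ± 0.21, 0.0016) were higher at 24 h than at 2 h by edgeR's quasi-likelihood test, where 16.2% of all genes were. IL1R1 had 11.04 CPM at 24 h against 5.04 CPM at 2 h, and IL17RC 15.5 CPM against 7.98 CPM. The numbers that the libraries carry run apart between 2 h or 6 h and 12 h or 24 h, so duration and a possible sequencing pool cannot be told apart. Without the unstimulated 2 h library neither gene was called, although the fitted differences were then 1.53 for IL1R1 (adjusted p = 0.12, edgeR) and 1.14 for IL17RC (0.11). Without the 24 h one IL17RC was not called (0.71, adjusted p = 0.14).

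Because the chains work in pairs, the level of a chain was set beside that of its partner on the TPM scale. For the type II receptor for IL-4 and IL-13, IL4R had 32.1, 32.5, 48.5 and 49.9 TPM with the combination beside 15.95, 15.7, 19.2 and 20.6 TPM of IL13RA1. In unstimulated cells IL4R had 13.7, 16.2, 13.1 and 9.26 TPM beside 16.3, 15.3, 16.3 and 18.8 TPM of IL13RA1. So IL4R was the more abundant chain in all 4 combination libraries and the scarcer one at 3 of 4 durations in unstimulated cells. IL13RA2, the decoy receptor for IL-13, had at most 10 counts in these libraries and did not pass the filter.

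For the IL-22 receptor, IL22RA1 was the scarcer chain throughout. With IFNγ 100 ng/ml it had 1.37, 3.88, 5.62 and 5.11 TPM beside 13.5, 18.1, 15.2 and 13.9 TPM of IL10RB, and in unstimulated cells 1.19, 0.867, 1.19 and 1.52 TPM beside 16.1, 14.4, 15.1 and 20.5 TPM. For the IL-10 receptor, the partner IL10RA was called higher with the combination (2.80 ± 0.37, adjusted p = 4.1e-07), supernatant 1/2 (2.95 ± 0.36, 1.3e-07) and TNFα 10 ng/ml (1.34 ± 0.40, 0.015), by edgeR. It had 10, 23, 37 and 75 estimated counts with the combination, against 5, 2, 6 and 6 in unstimulated cells.

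For IL-15, IL15RA was joined by little of IL2RB, and IL2RG was highest at 24 h of the combination and of supernatant 1/2. IL2RB, the beta chain, had 0.751, 0.580, 0.912 and 1.62 TPM with supernatant 1/2, against 0.787, 0.674, 0.733 and 1.78 TPM in unstimulated cells, and was not called in any of the 4 strong treatments (-0.34 to 0.31 on the log2 scale). IL2RG had 1.19, 1.14, 4.67 and 22.7 TPM beside it with supernatant 1/2, against 0.671, 0.453, 0.294 and 0.132 TPM in unstimulated cells. IL2RA, the alpha chain for IL-2, had at most 1 count in any of these libraries. IL7R, which pairs with IL2RG to bind IL-7, rose with IFNγ 100 ng/ml (0.52 ± 0.15, adjusted p = 0.022), TNFα 10 ng/ml (0.96 ± 0.15, 4.3e-05), the combination (1.77 ± 0.15, 1.4e-09) and supernatant 1/2 (1.74 ± 0.15, 2.2e-09), by edgeR. It had 72.2, 119.9, 142 and 276.6 CPM with supernatant 1/2, against 63.7, 63.3, 33.96 and 21.5 CPM in unstimulated cells.

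**Figure D4:**
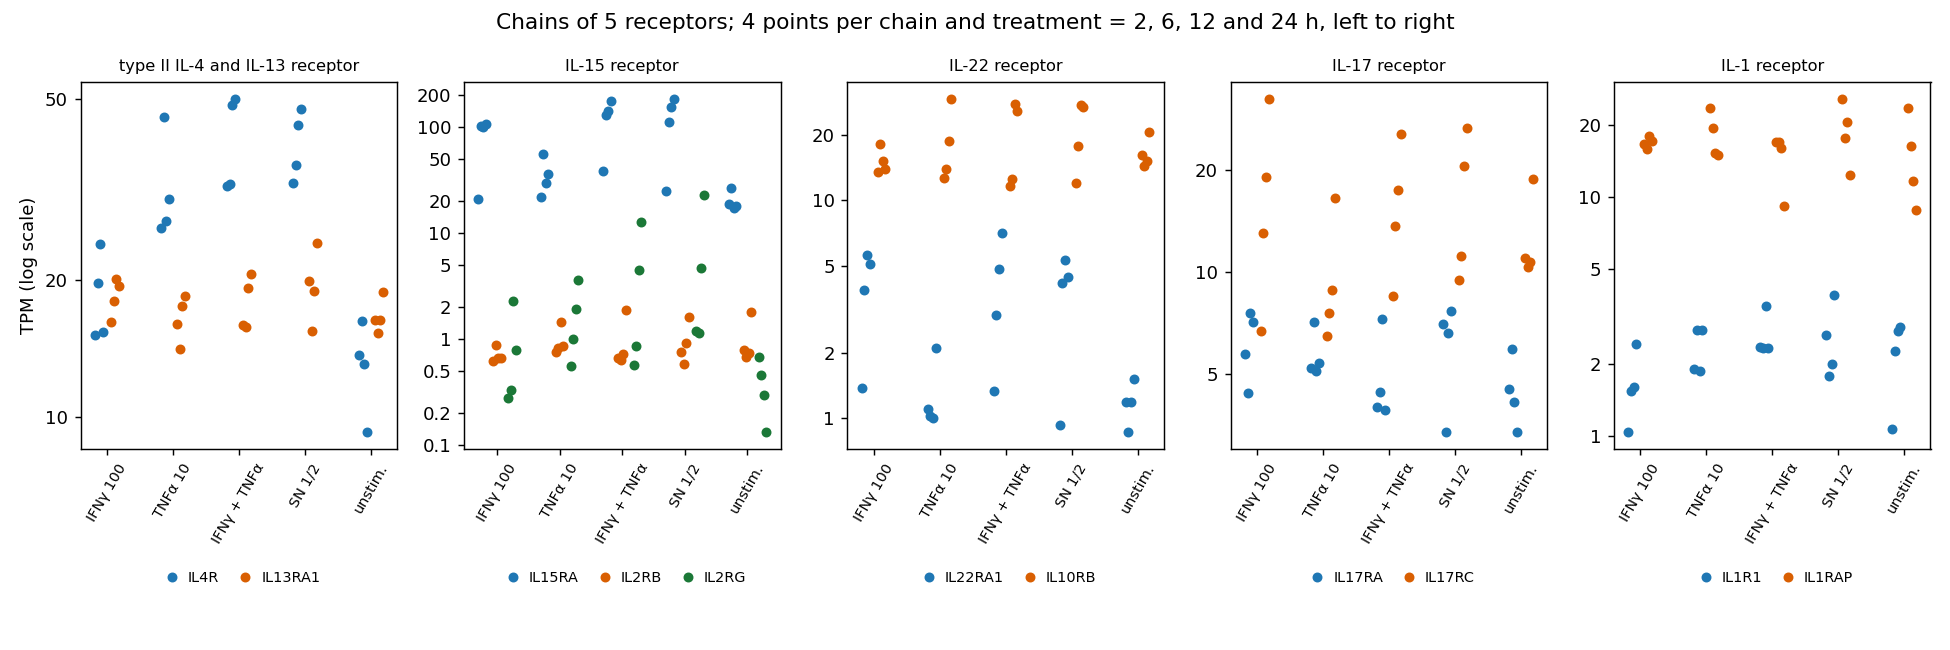
TPM (vertical axis, log scale) of the chains of 5 receptors under IFNγ 100 ng/ml, TNFα 10 ng/ml, their combination, supernatant 1/2 and in unstimulated cells, with 4 points per chain and treatment for 2, 6, 12 and 24 h from left to right. IL2RG is above IL2RB at 24 h of the combination and of supernatant 1/2 (12.8 and 22.7 TPM beside 1.86 and 1.62 TPM), and IL22RA1 stays below IL10RB in each library shown.

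For IL-17, IL17RC was above IL17RA in TPM in all 20 of these libraries (32.4 TPM beside 7.11 TPM of IL17RA at 24 h of IFNγ 100 ng/ml, for example). Of the other IL-17 receptor chains listed, IL17RB and IL17RE had values between -0.50 and 0.43 in the 4 strong treatments. IL17RB, the chain for IL-25, fell by 0.50 on the log2 scale with the combination (SE 0.18, adjusted p = 0.036) and by 0.48 with supernatant 1/2 (SE 0.17, 0.038), by edgeR. For IL-1, the accessory chain IL1RAP was the more abundant one (8.85 to 25.7 TPM beside 1.04 to 3.87 TPM of IL1R1) and rose in all 4 treatments by 0.20 to 0.34. For IL-18, IL18RAP, the accessory chain needed to signal, had 0 to 10 counts in these libraries and did not pass the filter, although IL18R1 had 67 to 439 with the combination.

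Of 33 other interleukin receptor chains listed, 20 passed the filter. With IFNγ 100 ng/ml 5 rose and none fell (median log2 fold change 0.20, all genes -0.01), and with TNFα 10 ng/ml 8 rose and 2 fell (0.38, all genes 0.00). With the combination 13 rose and 2 fell (0.31, all genes -0.02), and with supernatant 1/2 12 rose and 3 fell (0.51, all genes -0.02). In these treatments 9.38%, 14.3%, 23.5% and 22.6% of all genes were called higher and 6.47%, 10.1%, 22.4% and 20.8% lower. The medians were the same when the 1 chain without a count in unstimulated cells was set to a lower bound from 3 counts over that group. The 10 receptors described here were not tested against this list.

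OSMR, the receptor for oncostatin M, rose by 0.46 ± 0.07 with IFNγ 100 ng/ml, 0.93 ± 0.07 with the combination and 1.29 ± 0.07 with supernatant 1/2 (adjusted p = 8.0e-06, 5.7e-12 and 9.8e-15, edgeR). IL6ST, the shared chain gp130, rose by 0.70 ± 0.12, 0.84 ± 0.12 and 1.03 ± 0.12 with TNFα, the combination and supernatant 1/2. LIFR, which pairs with it, rose by 0.32 ± 0.10 with IFNγ, 0.66 ± 0.10 with the combination and 1.32 ± 0.10 with supernatant 1/2, and fell by 0.72 on the log2 scale with TNFα (SE 0.11). It was also the one listed receptor chain whose interaction was called (1.05 ± 0.15, adjusted p = 4.2e-04). IL27RA rose by 0.81 ± 0.10 with TNFα, and IL20RA fell by 1.11 with TNFα (SE 0.34), both called. IL20RB rose by 0.92 ± 0.36 with the combination (0.037).

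Genes for proteins that carry these receptors' signals were listed too. Of these 21 genes 20 passed the filter, and JAK3, the kinase bound by the common gamma chain, did not (at most 5 counts in these libraries, a gene named after its values were seen). With IFNγ 100 ng/ml 7 rose and none fell (median 0.16), with TNFα 10 ng/ml 7 rose and 1 fell (0.13), with the combination 11 rose and 2 fell (0.55) and with supernatant 1/2 12 rose and 1 fell (0.52). The shares and medians of all genes are those given above for the receptor chains.

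JAK2 (1.84 ± 0.23), STAT3 (0.99 ± 0.12) and MYD88 (0.89 ± 0.10), the adaptor of the IL-1 and IL-18 receptors, were among those that rose with IFNγ. With TNFα the leading ones were STAT5A (3.94 ± 0.33), a factor downstream of IL2RG receptors, IRAK2 (2.35 ± 0.12), a kinase downstream of MYD88, and TYK2 (0.57 ± 0.08), while IRS1, an adaptor used by IL4R, fell by 0.61 (SE 0.06). STAT5A had 33.1, 41.95, 20.3 and 16.3 CPM with TNFα 10 ng/ml, against 2.03, 1.76, 0.875 and 2.21 CPM in unstimulated cells. STAT5A, IRAK2 and JAK2 were among those that rose with the combination (4.25, 2.26 and 2.14) and with supernatant 1/2 (3.63, 2.17 and 1.89).

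Of 21 ligands and decoys listed, 6 passed the filter: IL15, IL7, IL18, IL18BP, IL1A and IL1B. Among the listed ligands that did not pass were IL2, IL4, IL13, IL10, IL22, IL17A and IL17F. IL15 rose together with its receptor chain, by 1.49 ± 0.19 with IFNγ 100 ng/ml, 0.70 ± 0.20 with TNFα 10 ng/ml, 2.06 ± 0.19 with the combination and 2.10 ± 0.19 with supernatant 1/2 (adjusted p = 1.2e-06, 0.011, 7.7e-10 and 5.6e-10, edgeR). It had 11.02, 22.5, 26.8 and 25.3 CPM with supernatant 1/2, against 4.74, 3.08, 5.60 and 5.65 CPM in unstimulated cells. IL7 rose by 1.82 ± 0.26, 0.93 ± 0.28, 2.26 ± 0.26 and 2.31 ± 0.26 in the same order.

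On the IL-18 axis, the secreted decoy IL18BP rose with IFNγ by 3.62 ± 0.23 and with the combination by 4.16 ± 0.23 and was -0.12 ± 0.31 with TNFα, while IL18 itself fell by 0.37, 0.35, 0.61 and 0.62 on the log2 scale with IFNγ, TNFα, the combination and supernatant 1/2. IL18BP had 14.5, 113, 271.7 and 489.6 CPM with the combination, against 5.79, 6.23, 7.09 and 8.83 CPM in unstimulated cells. On the IL-1 axis, IL1A rose by 4.48 ± 0.34 and IL1B by 4.15 ± 0.30 with TNFα (adjusted p = 2.3e-09 and 8.2e-10), and neither was called with IFNγ (-1.10 ± 0.52 and -0.39 ± 0.46). Over the 6 ligands and decoys, 3 rose with IFNγ, 4 with TNFα, 5 with the combination and 5 with supernatant 1/2, and IL18 was the 1 that fell in each. Their median log2 fold changes were 0.56, 0.82, 3.21 and 3.04, where those of all genes were -0.01, -0.002, -0.02 and -0.02. Of all genes, 9.38%, 14.3%, 23.5% and 22.6% were called higher in these treatments.

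As a check of the stimuli, their usual targets were measured. The IFNγ targets IRF1, TAP1, GBP1 and SOCS1 all rose with IFNγ 100 ng/ml (4.17 to 6.20), and the TNFα targets TNFAIP3, NFKBIA, CXCL8 and BIRC3 all rose with TNFα 10 ng/ml (3.77 to 6.52). Of the IFNγ targets, GBP1 (2.07 ± 0.35), TAP1 (1.96 ± 0.17) and IRF1 (1.54 ± 0.32) were also called higher with TNFα 10 ng/ml and SOCS1 was not (1.01 ± 0.51). Of the TNFα targets, BIRC3 was also called higher with IFNγ 100 ng/ml (0.74 ± 0.22, adjusted p = 0.023, edgeR) and the other 3 were not. With supernatant 1/2 all 8 rose (4.27 to 7.01).

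The profiles of the members were last set beside those of all genes, as Pearson correlations of log2 ratios to the unstimulated library of the same duration over the 40 stimulated libraries, among 13388 genes. These libraries share the unstimulated ones and are not independent, so the values are a description. Nearest to IL15RA were CASP4, APOL1 and RBCK1 (0.983, 0.982 and 0.980), nearest to IL4R were SOD2, CDKN1A and TNIP2 (0.980, 0.960 and 0.955), and nearest to IL2RG were ELK3, IL7R and GJB2 (0.950, 0.949 and 0.945). IL22RA1 was closest to RNF213 (0.961), TMEM229B (0.952) and ATP10D (0.950), IL18R1 to OAS3 (0.957), ASCC3 (0.952) and OPTN (0.951), and IL17RC to PSMB10 (0.941), VAMP5 (0.937) and GUK1 (0.932). IL13RA1 was closest to RALB (0.928), ITGA6 (0.926) and CMTR1 (0.925). For IL1R1 the nearest were GABARAPL1, PTGES and IGF2R (0.858, 0.825 and 0.818), for IL10RB SND1, IFT57 and USB1 (0.833, 0.830 and 0.825), and for IL17RA TRIM35, PSEN2 and NDST2 (0.752, 0.752 and 0.749).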

How the data were processed

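Stranded messenger RNA libraries were made from total RNA, per the labels' protocols. The deposited tables give each gene's expected count (an estimated count by Salmon) and TPM with its length, as the authors deposited them. Of other tools the submitters' processing notes list STAR, StringTie, DESeq2 and further ones, with the build GRCh38, and the sources used here do not give their roles, versions or the strand counted. Names came from a gene table for 33113 of 33538 identifiers and from GENCODE v29 for 343, and 82 stayed unnamed.

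Expected counts, fractional for 18.6% to 20.6% of genes per library, were rounded. Genes were kept by filterByExpr (minimum count 10, total 15) and scaled by TMM (factors 0.896 to 1.081) in edgeR 4.0.16 (R 4.3.3, limma 3.58.1). One quasi-likelihood fit held duration, treatment and a slope of each treatment on centered log2 duration (24 coefficients, 20 residual degrees of freedom). It was also run on simulated counts without duration effects. That run cannot show how courses that depart from a straight slope affect the fit. CPM are TMM-scaled, and log2 ratios used a prior count of 2. TPM also moves with the Salmon gene length, which for IL18R1 ran from 1473 to 3854 bases and for IL2RG from 416 to 1616 bases. Members and lists were chosen with earlier results of these data known. From the lists, partner chains are named, and up to 4 called genes per list and comparison by the size of the change, at a mean log2 CPM of at least 0. Alternatives were RLE size factors, no filter, no slopes, the early or late durations alone, the libraries compared alone, DESeq2 1.42.0, a prior count of 0.5 and leaving out each library. The values of 1 listed gene are not reported here.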

Additional observations from a re-analysis of the deposited data

Results flagged for a closer look

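The effect of a treatment differed between durations for 11 of the slopes tested, over 10 genes and 4 treatments (edgeR's quasi-likelihood test of the slope, log2 change of the effect per doubling of duration). Of all genes, 2.52%, 1.47%, 11.1% and 8.34% had a called positive slope with IFNγ 100 ng/ml, TNFα 10 ng/ml, the combination and supernatant 1/2. The 11 were IL15RA with IFNγ 100 ng/ml (0.645), IL2RG (1.601), IL15RA (0.692), IL18R1 (0.692), IL22RA1 (0.635), IL4R (0.311), IL10RB (0.253) and IL13RA1 (0.152) with the combination, and IL2RG (1.576), IL15RA (0.760) and IL4R (0.360) with supernatant 1/2. All 11 fitted slopes are positive. None was called without the unstimulated 2 h library, where the slopes with the combination were 1.769 for IL2RG, 0.157 for IL13RA1, 0.219 for IL10RB, 0.224 for IL4R, 0.332 for IL15RA, 0.064 for IL22RA1 and 0.024 for IL18R1. With supernatant 1/2 they were then 1.741 for IL2RG, 0.267 for IL4R and 0.396 for IL15RA, and with IFNγ 0.285 for IL15RA.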

How the results depend on the processing

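Of 76 calls of a receptor gene in a comparison, 2 missed the threshold with DESeq2, 4 without the filter and 0 with RLE size factors. Without slope terms 15 were lost and 50 kept, the slope calls having no value there. Among those lost, by edgeR, were IL4R with IFNγ 100 ng/ml (0.55, adjusted p = 0.063) and IL15RA with TNFα 10 ng/ml (0.93, 0.096). IL10RB with the combination (0.37, 0.070) and IL17RA with supernatant 1/2 (0.21, 0.051) were lost too. The 2 h and 6 h libraries alone kept 13, and the 12 h and 24 h ones alone 55. Of the 28 calls of the strong treatments against unstimulated cells, 25 held without any single library, the exceptions being IL13RA1 with IFNγ, IL10RB with the combination and IL17RA with supernatant 1/2. No paired analysis was possible because the replicate numbers only name libraries of different durations, and duration is already in the fit.

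The receptors called, of 10, changed in number as follows. Shares of all genes called are given above only for early or late durations of the 4 strong treatments against unstimulated cells. The other counts have no such share beside them and describe these 10 genes alone. The cause was not tested. Fits of the early or late durations and of only the libraries compared had both fewer libraries and no slope terms, and these cannot be told apart. With DESeq2, TNFα 0.1 ng/ml had 3 and the IFNγ slope 2, and with RLE size factors TNFα 0.1 ng/ml had 2. Without slopes, TNFα 10 against 0.1 ng/ml had 0 and 24 h against 2 h had 8, where duration is then 1 effect shared by all treatments. With 12 h and 24 h alone, TNFα 0.1 ng/ml had 0, TNFα 10 against 0.1 ng/ml 2 and supernatant 1/2 against the combination 1. With 2 h and 6 h alone, IFNγ 1 and 100 ng/ml, supernatant 1/200, TNFα 10 against 0.1 ng/ml and the combination against TNFα each had 0, TNFα 1 ng/ml and IFNγ against TNFα each 1, TNFα 10 ng/ml and the combination against IFNγ each 2, supernatant 1/2 had 3 and the combination 4. IL10RB then had the opposite sign with the combination against unstimulated cells (-0.082) and against IFNγ (-0.156). In fits of only the libraries compared, IFNγ 1 ng/ml, TNFα 0.1 ng/ml, TNFα 10 against 0.1 ng/ml and the combination against TNFα each had 0, IFNγ 100 ng/ml 1, supernatant 1/200 2, IFNγ against TNFα 3, and the combination and supernatant 1/2 each 4. IL2RG had no value in the fits for supernatant 1/200 and for the combination against unstimulated cells.

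Leaving out 1 library gave 1 to 3 receptors for TNFα 0.1 ng/ml, 0 to 1 for TNFα 10 against 0.1 ng/ml, 0 to 1 for supernatant 1/2 against the combination, 0 to 2, 0 to 7 and 0 to 5 for the slopes of IFNγ, the combination and supernatant 1/2, and 0 to 3 for 24 h against 2 h. These counts too stand without the shares of all genes.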
